A study of Homo sapiens with 6 samples.

Results

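WT and KO teratomas were compared in 4 of the 6 libraries of this study, 2 of each group, over 35837 of 54030 human nuclei. WT is the H1 human embryonic stem cell line with LNCPRESS1 intact, and KO is the same line labelled as a LNCPRESS1 knockout. LNCPRESS1 is a long noncoding RNA of pluripotent cells that p53 represses. Cells of both groups were mixed with matrigel and put under the flank skin of NSG mice, which lack T, B and NK cells but keep myeloid cells and form the tumour's host vessels. A teratoma is a benign tumour in which pluripotent cells differentiate into tissues of all 3 germ layers. The sources used here do not say how the knockout was made, how many clones were injected, how old the tumours were, or whether the libraries of a group came from different tumours. The p-values below therefore measure the spread between libraries, which may be technical.

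The libraries were chosen by their titles, with the ΔATG pair left out, and no measured value entered the choice. A barcode counted as a human nucleus with at least 500 human UMIs, 300 human genes and 90% of its UMIs on human genes. This kept 5542 and 12254 WT nuclei and 10096 and 7945 KO nuclei, which carried 34752348 to 43434178 human UMIs per library and a median of 2665.5 to 4064.5 UMIs per nucleus. Mitochondrial transcripts took 0.168% and 0.0694% of human UMIs in WT and 0.163% and 0.106% in KO. Any 2 of these 4 libraries shared 8 to 32 barcodes among their human nuclei. Levels are given as a gene's UMIs per 1000000 human UMIs (CPM) after TMM scaling, in the order WT replicate 1, WT replicate 2, KO replicate 1, KO replicate 2. A fold change is KO minus WT on the log2 scale with its standard error (SE), and a gene rose or fell where edgeR's quasi-likelihood test gave a Benjamini-Hochberg adjusted p under 0.05.

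LNCPRESS1 itself (chr7:101299578-101301346, plus strand, GRCh38) was too rare for these nuclei to check the labels. It had 9 and 3 UMIs in the WT libraries and 3 and 0 in the KO libraries. That is 0.0793 to 0.268 CPM in WT and 0.00786 to 0.111 CPM in KO (exact Poisson intervals over both libraries, for counting error only). The fold change was -1.95 (SE 1.13, edgeR adjusted p = 0.506), so a loss was not detectable at this depth.

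Of 26580 genes tested, 531 fell in KO (2.0%) and 183 rose (0.688%). Of the 11 genes named for the largest falls, 10 are known from gut, liver or pancreas and the other is ZNF667. The 12 genes named for the largest rises, at a mean of 5 CPM or more in KO, include neuronal genes such as OTP, TBR1, SLC5A7 and GAD2, and HOXD3, HOXA5 and HOXA3. The genes that fell had a median fold change of -2.27, and 335 of them fell more than 4-fold. Those that rose had a median of 1.39, and 40 rose more than 4-fold. The median over all genes was -0.01. Both KO libraries lay above both WT libraries for 22.3% of genes and below them for 23.5%. An unadjusted p under 0.05 was reached by 4378 genes. The calls depended on which libraries shared the fit: with the ΔATG pair included, edgeR called no gene and 1301 had an unadjusted p under 0.05. All 714 genes kept their sign in that fit, but it uses the same WT and KO counts in which they were called, so this is no independent check. Leaving out WT replicate 2 or KO replicate 2 gave 1297 and 1364 calls, and nuclei thinned to an equal number of UMIs gave 434.

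**Figure D1:**
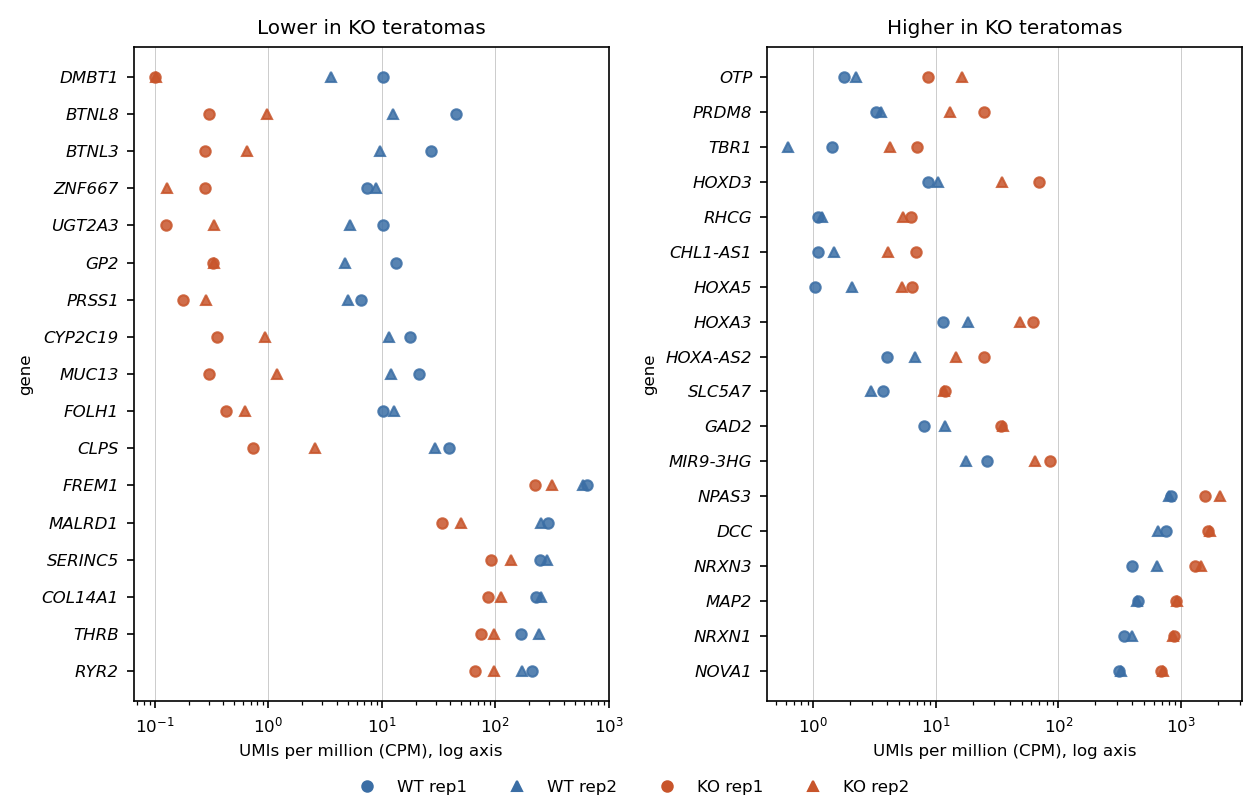
CPM (log axis) of the genes with the largest fold change or the highest level among those that fell (left) or rose (right), 1 point per library, circles for replicate 1 and triangles for replicate 2, WT in blue and KO in orange. No KO point overlaps the WT points of the same gene, as the naming rule required, and DMBT1 spans from 0.101 CPM in KO to 10.2 CPM in WT.

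The endoderm is the inner germ layer, from which gut lining, liver and pancreas arise. Its fate is set by a network of transcription factors, of which the GATA, FOXA, HNF and CDX factors are the best known. GATA4 opens endoderm and heart genes and had the smallest p of all genes, with 78.5, 74.8, 8.29 and 6.20 CPM. Both KO libraries stood far below both WT libraries, a fold change of -3.4 (SE 0.24, edgeR adjusted p = 0.00556). GATA4 is not a measure of endoderm alone in these tumours. In the mesenchyme-like nuclei described below it had 98.2, 117.1, 2.58 and 14.0 CPM, without passing the test there (edgeR adjusted p = 0.2995). HNF4A, the nuclear receptor of gut and liver epithelium, had 57.1, 49.0, 5.02 and 8.27 CPM. It fell by 3.0 (SE 0.29, edgeR adjusted p = 0.00807). PDX1, the pancreas and duodenum factor, had 3.39, 1.90, 0.0504 and 0.258 CPM and fell by 4.07. CDX2, the intestinal factor, had 3.39, 3.57, 0.529 and 0.491 CPM and fell by 2.76. Of 26 endoderm transcription factors tested 11 fell (2.0% of all genes) and none rose (0.688% of all genes), with a median of -1.87. Their summed levels were 514.7, 503.5, 179.4 and 221.1 CPM. This list and those below were chosen with earlier results of these data known. List counts and medians are therefore no independent support, and they are to be read beside those shares of all genes. FOXA2 and SOX17, the early endoderm regulators, did not pass the test: FOXA2 had 6.35, 3.82, 3.20 and 2.33 CPM, and SOX17 had 2.56, 2.62, 1.44 and 0.258 CPM. In a bulk sum, fewer cells of a type and less RNA per cell cannot be told apart.

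Genes of the intestinal lining were low in both KO libraries. The brush border is the absorptive surface of enterocytes. Of 22 genes tested from an enterocyte list 15 fell (2.0% of all genes) and none rose, with a median of -2.67. Their summed levels were 408.2 and 307.4 CPM in WT against 53 and 77.2 CPM in KO. The list also holds BTNL3 and BTNL8, and it was chosen with earlier results of these data known. FOLH1, a folate-releasing peptidase, had 10.2, 12.8, 0.429 and 0.620 CPM and fell by 4.45 (SE 0.36, edgeR adjusted p = 0.0059). FABP2, the intestinal fatty acid carrier, had 4.81, 4.01, 0.126 and 0.258 CPM and fell by 4.5. USH1C, which links microvillus tips, had 24.1, 18.4, 3.55 and 3.57 CPM and fell by 2.58. BTNL3 and BTNL8, butyrophilin-like proteins that gut γδ T cells recognise, fell by 5.31 and 5.50. Those 2 genes are close copies, so reads may be split between them. BTNL8 had 45.5 and 12.7 CPM in WT, a wide spread, against 0.303 and 0.982 CPM in KO, and its call was lost without KO replicate 1 (edgeR adjusted p = 0.235), with no filter on low counts (0.167) or with doublets removed (0.0531).

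Among 18 genes of the gut mucosa and goblet cells 8 fell and none rose (median -2.55), and 5 fell without WT replicate 1. MUC13, a membrane mucin, had 21.1, 12, 0.303 and 1.19 CPM, and TSPAN8, a tetraspanin of gut epithelium, had 27.2, 34.6, 4.92 and 5.48 CPM. MUC13 lost its call without WT replicate 1 or WT replicate 2 (edgeR adjusted p = 0.131 and 0.106). Of 15 apolipoproteins and lipid export genes 7 fell (median -1.90). APOA1, the chief HDL apolipoprotein, had 48.0, 57.7, 11.7 and 9.61 CPM and fell by 2.31. MTTP, which loads lipid onto apolipoprotein B, had 36.3, 24.0, 5.70 and 4.52 CPM and fell by 2.56. Liver plasma proteins showed a lower median too, -1.12, but 1 of 18 passed the test (5 without WT replicate 1, 3 without KO replicate 1 and 6 without KO replicate 2). That gene was A1CF, a cofactor of apolipoprotein B mRNA editing, with 28.4, 29.2, 4.18 and 5.63 CPM. ALB, serum albumin, had 23.7, 74.0, 0.958 and 7.93 CPM and differed by -3.46 (SE 1.10, edgeR adjusted p = 0.217). AFP, the fetal counterpart of albumin, had 129.7, 229.4, 34.2 and 68.4 CPM (edgeR adjusted p = 0.079). The WT libraries differed from each other by several fold in ALB, and the KO libraries did as well.

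Digestive enzymes and drug-metabolising enzymes had the lowest median of all lists, -2.98, with 10 of 19 genes lower and none higher. DMBT1, a secreted scavenger protein of gut and glands, had 10.2, 3.59, 0.101 and 0.103 CPM and the largest fold change among the named genes, -6.03 (SE 0.68, edgeR adjusted p = 0.011). CLPS, the cofactor of pancreatic lipase, had 39.2, 29.7, 0.731 and 2.58 CPM and fell by 4.38, but not without WT replicate 1 or WT replicate 2 (edgeR adjusted p = 0.289 and 0.236). PRSS1, cationic trypsinogen, had 6.63, 5.03, 0.176 and 0.284 CPM and fell by 4.64. GP2, a zymogen granule protein, had 13.4, 4.78, 0.328 and 0.336 CPM and fell by 4.76. The cytochrome CYP2C19 and the glucuronosyltransferase UGT2A3 fell by 4.51 and 5.05. PRSS1, CYP2C19 and the UGT genes each have near-identical copies, which makes the values of single members uncertain.

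General markers of epithelium, which gut lining also expresses, were lower in KO. Of 20 genes of simple epithelium 9 fell and none rose (median -1.56), among them CDH1 (E-cadherin; 48.5, 42.7, 13.5 and 14.1 CPM) and EPCAM (34.6, 44.7, 12.7 and 10.8 CPM). None of 13 genes of squamous epithelium passed the test in either direction (median -0.02), and none of 16 genes of motile cilia did (median 0.04). The difference between these groups of genes was not tested. MALRD1, a gut protein that acts on bile acid signalling, was among the lower genes with the highest levels, with 290.8, 253.8, 33.8 and 49.8 CPM. It fell by 2.70 (SE 0.25, edgeR adjusted p = 0.00654).

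Vessel genes were lower as well. Of 20 endothelial genes 7 fell and none rose (median -1.33), 2 without WT replicate 1 and 4 without KO replicate 1. PECAM1, the junction protein CD31, had 20.2, 16.7, 1.97 and 4.83 CPM and fell by 2.44 (SE 0.42, edgeR adjusted p = 0.0306, and 0.172 and 0.107 without WT replicate 1 or 2). EGFL7, a matrix protein that endothelial cells secrete, had 23.5, 27.4, 6.4 and 8.89 CPM and fell by 1.73. CDH5, VE-cadherin, fell by 2.25, but not in nuclei thinned to equal UMIs (edgeR adjusted p = 0.0836). These are human transcripts, so vessels of the mouse host are not counted in them. No gene of 14 for macrophages and blood passed the test (median -0.93; 3 fell without WT replicate 1), and their summed levels were 29, 67.5, 15.3 and 29 CPM.

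**Figure D2:**
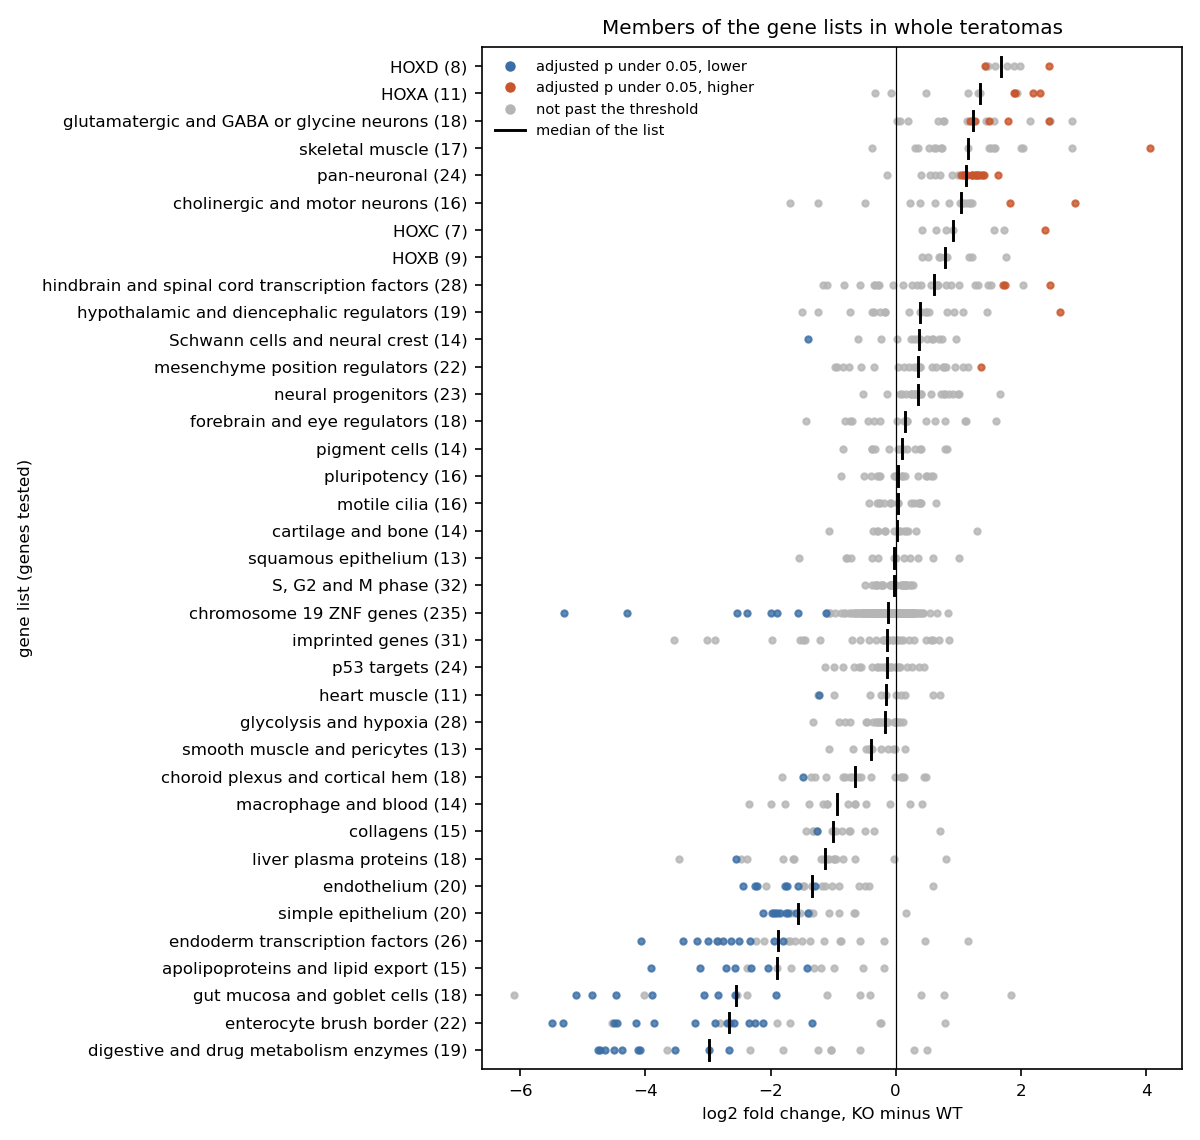
Log2 fold change of every tested member of 37 gene lists, with the number tested in brackets, blue for genes that fell, orange for genes that rose, grey for the rest, and a black bar at each list's median. The lowest median is that of digestive and drug metabolism enzymes (-2.98) and the highest that of HOXD (1.69).

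Neuronal genes moved the other way, beside 0.688% of all genes that rose. Of 24 genes expressed by most neurons 12 rose and none fell (median 1.12; 5 rose without WT replicate 1), and their summed levels were 2281 and 2675 CPM in WT against 5487 and 5737 CPM in KO. DCX, a microtubule protein of migrating young neurons, had 46.5, 44.3, 121.2 and 99.1 CPM and rose by 1.28 (SE 0.20, edgeR adjusted p = 0.0198). STMN2, a growth cone protein, had 73.6, 79.7, 219.9 and 167.5 CPM and rose by 1.34. NRXN3, a synaptic adhesion protein, had 401.6, 634.0, 1294 and 1455 CPM, MAP2, the dendrite marker, had 447.0, 437.1, 910.0 and 921.0 CPM, and both rose. DCC, the netrin receptor that guides axons, had 758.7, 653.0, 1664 and 1708 CPM and rose by 1.26. These 5 rises ran from 2.07-fold (MAP2) to 2.66-fold (NRXN3). Without WT replicate 1 the calls of DCC, MAP2, NRXN3 and STMN2 were lost (edgeR adjusted p = 0.14, 0.199, 0.218 and 0.0566), and those of DCC and MAP2 also without WT replicate 2 (0.102 each).

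Genes of transmitter types and positions showed fewer calls. Of 18 genes of glutamatergic, GABA or glycine neurons 5 rose and none fell (median 1.24), and 10 rose without WT replicate 2. GAD2, an enzyme that makes GABA, had 8.03, 11.9, 33.9 and 35.4 CPM and rose by 1.79. SLC17A6, the vesicular glutamate transporter of subcortical neurons, had 17.6, 12.8, 40.2 and 32.6 CPM and rose by 1.26, but not without KO replicate 1 (edgeR adjusted p = 0.127) or with doublets removed (0.0508). TBR1, a factor of cortical and other glutamatergic neurons, had 1.42, 0.626, 6.98 and 4.19 CPM and rose by 2.46, but not with doublets removed (edgeR adjusted p = 0.0643). Of 16 genes of cholinergic and motor neurons 2 rose. SLC5A7, the choline transporter, had 3.70, 2.94, 11.8 and 11.7 CPM, and LHX3, a motor neuron and interneuron factor, had 0.114, 0.0695, 0.781 and 0.568 CPM. The call of LHX3 was lost without any 1 of WT replicate 1, WT replicate 2 and KO replicate 1 (edgeR adjusted p = 0.0682, 0.0842 and 0.124), in DESeq2 (adjusted p = 0.0532) or with doublets removed (edgeR adjusted p = 0.0506). MNX1, a motor neuron factor also known from pancreas, lay lower in both KO libraries (13.3, 7.63, 4.21 and 2.30 CPM) and did not pass (log2 fold change -1.68, edgeR adjusted p = 0.0746). Of the 16 genes 11 had both KO libraries above both WT, against 22.3% of all genes. The 3 with both KO libraries below both WT were MNX1, TBX20 and SLIT3, against 23.5% of all genes. The summed level of the list was 778.5, 786.1, 462.0 and 741.8 CPM, of which SLIT3, an axon guidance protein, made up 707.3, 690.5, 353.5 and 644.5 CPM. CHAT, the enzyme that makes acetylcholine, did not pass (1.68, 0.765, 3.03 and 2.64 CPM, edgeR adjusted p = 0.211).

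OTP, a factor of hypothalamic neurons, had the largest rise among the genes named for fold change at a mean of 5 CPM or more, 2.63 (SE 0.38, edgeR adjusted p = 0.0178), with 1.77, 2.25, 8.55 and 16.4 CPM. It was the 1 of 19 hypothalamic and diencephalic regulators that passed, beside 0.688% of all genes that rose. PRDM8, which acts with BHLHE22 in neural circuit formation, had 3.22, 3.55, 24.5 and 13.1 CPM and rose by 2.47. It was 1 of 3 that rose among 28 factors of hindbrain and spinal cord, with UNCX (1.71) and the proneural factor NEUROG2 (1.74). Without WT replicate 1 OTP and PRDM8 did not pass (edgeR adjusted p = 0.0684 and 0.0728), and without KO replicate 1 UNCX and NEUROG2 did not (0.105 and 0.0642). UNCX was also lost in nuclei thinned to equal UMIs (edgeR adjusted p = 0.0781) and NEUROG2 with doublets removed (0.0506). None of 18 forebrain and eye regulators passed (median 0.15). None of 23 neural progenitor genes passed (median 0.35), although HES5, a NOTCH target, had 7.37, 16.2, 41.0 and 33.9 CPM (edgeR adjusted p = 0.064). HTR2C, the serotonin receptor of choroid plexus, fell by 1.48 and was the 1 call among 18 choroid plexus genes, beside 2.0% of all genes that fell. ERBB3, the neuregulin receptor of Schwann cells and also of epithelium, fell by 1.4 and was the 1 call among 14 Schwann cell and neural crest genes, lost without KO replicate 2 (edgeR adjusted p = 0.0673).

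HOX genes encode the factors that mark position along the trunk, in 4 clusters named HOXA to HOXD, and lower numbers mark more anterior levels. All 8 HOXD and all 7 HOXC genes tested had both KO libraries above both WT libraries, as did 8 of 11 HOXA and 6 of 9 HOXB genes, against 22.3% of all genes. The medians were 1.69 for HOXD, 0.92 for HOXC, 1.35 for HOXA and 0.79 for HOXB. The HOX genes that rose were HOXA3, HOXA4, HOXA5, HOXA6, HOXC10, HOXD3 and HOXD10. HOXD3 had 8.63, 10.4, 68.9 and 34.8 CPM and rose by 2.45 (SE 0.34, edgeR adjusted p = 0.0181). HOXA3 had 11.5, 18.3, 62.2 and 48.3 CPM and rose by 1.89 (SE 0.28, edgeR adjusted p = 0.0181). HOXC10, of a lumbar level, had 0.598, 0.464, 3.4 and 2.14 CPM and rose by 2.39. Of these calls that of HOXA3 held with each library left out. HOXD3 and HOXD10 did not pass without WT replicate 1 (edgeR adjusted p = 0.197 and 0.063), HOXD3 also without WT replicate 2 (0.145) and HOXD10 without KO replicate 1 (0.166). HOXA4 and HOXA5 were lost without WT replicate 1 (0.0557 and 0.0804), and HOXA5, HOXA6 and HOXC10 without KO replicate 1 (0.0642, 0.0562 and 0.0507). In nuclei thinned to equal UMIs HOXA4, HOXA5, HOXA6, HOXC10 and HOXD10 did not pass (edgeR adjusted p = 0.0665, 0.12, 0.0666, 0.108 and 0.125), nor did HOXA5 with relative log expression scaling (0.0519). No HOXB gene passed (5 of 9 did without WT replicate 2), and the nearest was HOXB9 with 1.96, 2.25, 9.60 and 4.70 CPM (edgeR adjusted p = 0.0623). Neighbouring HOX genes and their antisense RNAs overlap, and no source used here gives the strand setting of the counting, so HOXA-AS2 (4.01, 6.77, 24.7 and 14.5 CPM) cannot be told apart from HOXA3. Its call was lost without WT replicate 1 (edgeR adjusted p = 0.103) or KO replicate 1 (0.0789), and in thinned nuclei (0.0789).

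**Figure D3:**
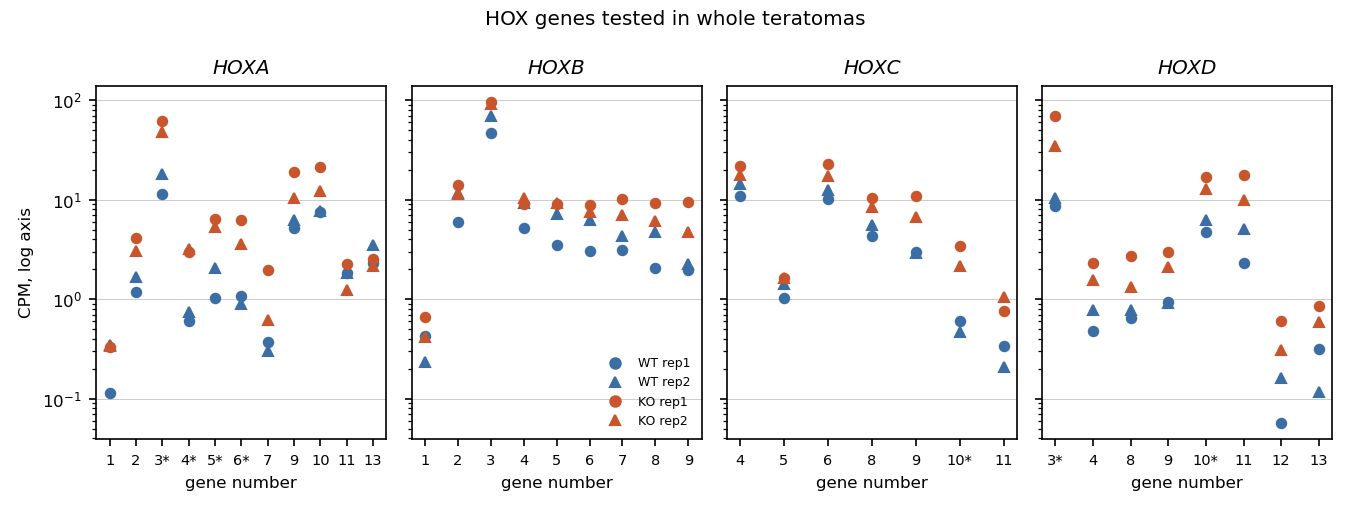
CPM (log axis) of each HOX gene tested, by cluster and gene number, 1 point per library, with an asterisk at the genes that rose. KO points (orange) lie above WT points (blue) for every HOXC and HOXD gene, and the 3 overlapping HOXA genes are numbers 1, 11 and 13.

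Mesodermal genes gave few calls. A single call in a list is to be read beside the 2.0% of all genes that fell and the 0.688% that rose. TBX5, a factor of heart and forelimb mesenchyme, had 19.7, 13.3, 48.0 and 37.2 CPM and rose by 1.37, the 1 call among 22 factors of mesenchyme position (edgeR adjusted p = 0.037, 0.0876 without KO replicate 1 and 0.0563 in thinned nuclei). ACTA1, skeletal muscle actin, had 0.199, 0.0927, 3.63 and 1.24 CPM and rose by 4.07 (SE 0.70, edgeR adjusted p = 0.0289), the 1 call among 17 skeletal muscle genes, whose median was 1.16. Its call was lost without WT replicate 1 or WT replicate 2 (edgeR adjusted p = 0.085 and 0.0868). COL14A1, a fibril-associated collagen, had 227.8, 251.5, 86.6 and 113.0 CPM and fell by 1.26, the 1 call among 15 collagens (10 without KO replicate 2). COL1A1 did not pass (917.4, 1408, 167.3 and 699.2 CPM, edgeR adjusted p = 0.392), and the KO libraries differed from each other by several fold. COL9A3, a collagen outside the list named after its values were seen, also fell, by 1.46 (33.4, 38.0, 10.1 and 15.9 CPM, edgeR adjusted p = 0.0336). RYR2, the calcium channel of heart muscle and neurons, fell by 1.23 and was the 1 call among 11 heart muscle genes, lost without WT replicate 1 or KO replicate 1 (edgeR adjusted p = 0.0975 and 0.0631). None of the 14 cartilage and bone genes or 13 smooth muscle and pericyte genes passed.

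Lists tied to LNCPRESS1 and to stem cells gave no call. Of all genes 2.0% fell and 0.688% rose, so a list of this size can hold no call without differing from all genes. None of 24 p53 targets tested passed (median -0.14, with 11 having both KO libraries below both WT), against 23.5% of all genes below. None of 16 pluripotency genes passed (median 0.04), among them SOX2 with 36.6, 37.8, 60.3 and 49.5 CPM. None of the 28 glycolysis and hypoxia genes, 32 cell cycle genes, 20 immediate early and heat shock genes, 13 mitochondrial genes or 80 ribosomal protein genes passed. Among 31 imprinted genes none passed. The maternally expressed RNAs of the DLK1 region on chromosome 14 had large differences with wide spread: MEG3 had 80.1, 22.5, 2.90 and 5.92 CPM, a fold change of -3.54 with an edgeR adjusted p of 0.0778.

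Zinc finger genes were also among the calls. KRAB zinc finger proteins, many encoded in clusters on chromosome 19, bind DNA and mostly silence transposons and genes. Of 235 ZNF genes of chromosome 19 tested, 8 fell (3.4%) and none rose, beside 2.0% of all genes lower. Their median was -0.13, 168 lay below 0 (71.5%, against 50.6% of all genes), and 84 had both KO libraries below both WT (35.7%, against 23.5%). On other chromosomes 248 ZNF genes were tested, a group added after the values were seen. Of these 4 fell (1.6%, against 2.0% of all genes) and 1 rose. A share of 57.3% lay below 0 (50.6% of all genes), and 16.9% had both KO libraries below both WT (23.5% of all genes). The genes of a cluster are similar in sequence, so reads of single members are uncertain.

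ZNF667 (chr19:56439325-56478065, minus strand) had 7.34, 8.99, 0.277 and 0.129 CPM and fell by 5.30 (SE 0.45, edgeR adjusted p = 0.0059), from 258 and 388 UMIs in WT to 11 and 5 in KO. ZNF667-AS1, a long noncoding RNA that starts head to head with it, had 7.26, 8.67, 0.555 and 0.413 CPM and fell by 4.03. It was named after its values were seen. The RefSeq starts of the pair lie 529 bases apart (779 for a second start of ZNF667-AS1), and the GENCODE models overlap. The next tested gene, ZNF471, fell by 1.89 (7.97, 6.93, 1.66 and 2.35 CPM). ZNF583 on the other side did not pass and lay above WT in both KO libraries (18.2, 18.4, 21.3 and 24.1 CPM).

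At the other positions too, genes that fell stood beside genes that did not pass. Some of these neighbours also lay below WT in both KO libraries, as 23.5% of all genes did. ZNF528 (chr19:52397849-52418412, plus strand) had 11.6, 11.8, 2.90 and 3.02 CPM, and ZNF528-AS1, read from the other strand just upstream, had 23.7, 21.4, 4.79 and 3.90 CPM. Both fell, by 1.99 and 2.37. The flanking ZNF880 and ZNF534 did not pass, but both KO libraries lay below both WT in each (fold changes -0.26 and -0.81). ZNF585B (chr19:37181579-37218153, minus strand) had 12.2, 11.3, 1.84 and 2.20 CPM and fell by 2.54. Its near copy ZNF585A had 7.91, 10.9, 6.43 and 4.21 CPM and did not pass (edgeR adjusted p = 0.243). ZNF229 had 3.70, 7.37, 0.151 and 0.413 CPM, and ZNF439 had 16.7, 18.5, 2.90 and 3.85 CPM. Near ZNF439, ZNF441 and ZNF69 lay below WT in both KO libraries without passing (-1.05 and -0.60), while ZNF491 and ZNF440 overlapped. ZNF431 had 111.7, 99.9, 48.0 and 50.1 CPM, a 2.16-fold fall, and ZNF600 fell by 1.56. ZNF611 and ZNF28, which flank ZNF600, did not pass but lay below WT in both KO libraries (-0.45 and -0.36). On chromosome 5, ZNF454 (178941191 to 178966433) and ZNF354C (179060415 to 179083537) lie near each other, and both fell, by 2.80 and 3.36.

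The sequences before 3 of these starts are shown, from genes that fell in both KO libraries while a neighbour did not pass. ZNF439, ZNF431 and ZNF229 met the same condition and are not shown. Each run is the 250 bases upstream of the RefSeq start (GRCh38.p14), 5′ to 3′ on the gene's strand, with CG dinucleotides, the sites of DNA methylation, in capitals.
ZNF667, minus strand, chr19:56477346-56477595: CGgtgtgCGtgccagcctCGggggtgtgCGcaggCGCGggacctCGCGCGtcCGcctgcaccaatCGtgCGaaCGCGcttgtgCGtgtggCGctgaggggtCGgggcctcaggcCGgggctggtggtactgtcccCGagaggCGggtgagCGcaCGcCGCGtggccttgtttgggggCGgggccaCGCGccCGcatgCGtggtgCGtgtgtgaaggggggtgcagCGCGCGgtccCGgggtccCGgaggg
ZNF528, plus strand, chr19:52397599-52397848: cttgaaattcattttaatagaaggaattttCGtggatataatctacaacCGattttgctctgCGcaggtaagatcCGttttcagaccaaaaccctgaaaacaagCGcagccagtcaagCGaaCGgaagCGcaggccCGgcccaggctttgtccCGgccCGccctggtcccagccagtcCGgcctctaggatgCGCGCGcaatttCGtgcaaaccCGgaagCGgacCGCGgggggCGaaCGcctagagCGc
ZNF585B, minus strand, chr19:37210537-37210786: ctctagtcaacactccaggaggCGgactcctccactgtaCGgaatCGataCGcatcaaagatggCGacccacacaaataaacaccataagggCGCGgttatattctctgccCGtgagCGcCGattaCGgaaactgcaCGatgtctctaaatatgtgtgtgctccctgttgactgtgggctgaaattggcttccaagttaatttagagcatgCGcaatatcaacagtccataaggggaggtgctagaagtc
They hold 35, 23 and 13 CG dinucleotides, a motif that reads the same on both strands. The RefSeq starts of ZNF667 (56477345) and ZNF585B (37210536) lie inside their GENCODE spans, which run to 56478065 and 37218153. The runs of these minus strand genes are therefore not the bases before their GENCODE starts. Of the genes not shown, ZNF439 holds 10, ZNF431 holds 11, and the entries of ZNF229 hold 21 and 9. Over 35116 RefSeq promoters the median was 11, and 52.2% held at least 10. Over the 7 entries for 6 of the 8 fallen ZNF genes of chromosome 19 the counts ran from 9 to 35 with a median of 13, and over 255 entries for 204 other tested ZNF genes there the median was 16. ZNF600 and ZNF471 had no entry. Methylation was not measured in these files.

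Nuclei were then grouped into 24 clusters, and 10 classes were named from marker genes, while 6 clusters stayed unnamed. The general epithelium-like class, cluster 20, was led by RBPJL, UGT2B7, GP2 and CCKAR, of which RBPJL, GP2 and CCKAR are known from pancreatic acinar cells. It held 3.06% and 2.62% of WT nuclei and 0.0323% and 0.323% of KO nuclei, from 162, 289, 3 and 24 nuclei. Its share was lower by 4.02 on the log2 scale (SE 0.86, edgeR adjusted p over classes = 0.0015), the 1 class called. The call was lost without KO replicate 1 (adjusted p = 0.141) and at clustering resolutions 0.5 (adjusted p = 0.132) and 2 (adjusted p = 0.18). The unnamed cluster 11, led by gut and liver genes, held 5.67% and 7.89% of WT nuclei and 0.313% and 1.05% of KO nuclei. Since the clusters were built from genes that differ between the groups, shares and levels cannot be told apart here.

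Neuron-like nuclei were 5.78% and 8.39% of WT libraries and 23.0% and 18.0% of KO libraries. The groups did not overlap, but the share did not pass the test (log2 difference 1.53, SE 0.75, edgeR adjusted p = 0.133). Endothelial-like nuclei were 1.70% and 2.27% in WT and 0.269% and 0.753% in KO (edgeR adjusted p = 0.0757). Skeletal muscle-like nuclei were 0.264% and 0.00905% in WT and 0.636% and 0.430% in KO (edgeR adjusted p = 0.0757, and 0.0176 without WT replicate 1). Mesenchyme-like nuclei were 29% and 38.0% in WT and 18.2% and 20.7% in KO. Different clusters held most of that class: cluster 1 had 847 and 2824 WT nuclei but 31 and 213 KO nuclei, and cluster 2 had 479 and 464 WT nuclei and 1638 and 806 KO nuclei.

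**Figure D4:**
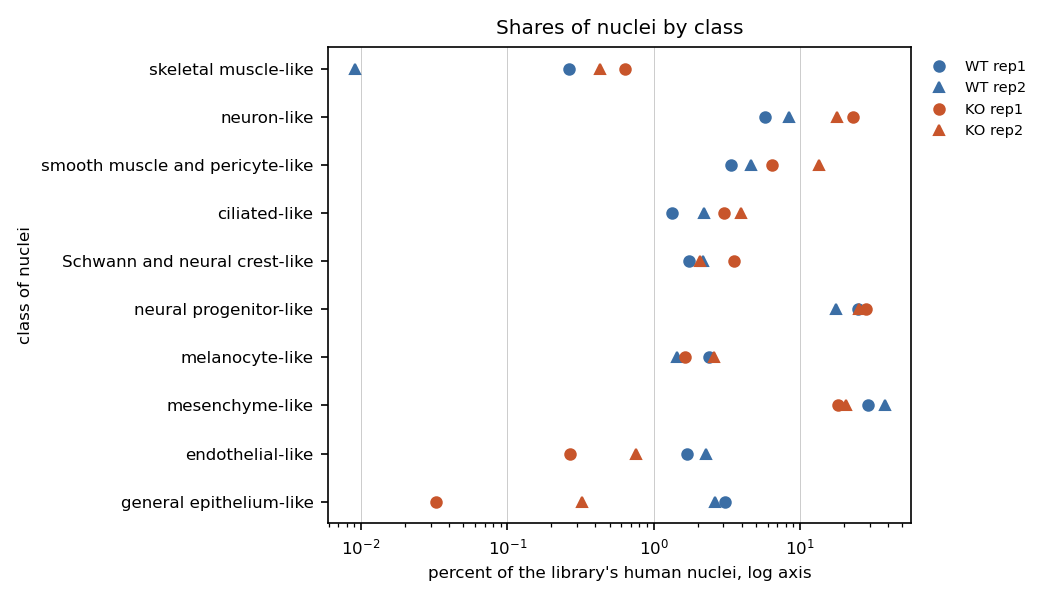
Share of each library's human nuclei (log axis) in the 10 named classes, 1 point per library, WT in blue and KO in orange. KO lies below WT by the widest margin in the general epithelium-like class (0.0323% and 0.323% against 3.06% and 2.62%) and above it in the neuron-like class.

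Within 1 kind of nuclei few genes passed. Mesenchyme-like nuclei gave 0 calls of 18810 genes tested (0%), neuron-like nuclei 0 of 17314 (0%), and neural progenitor-like nuclei 3 of 18619 (0.0161%). Unadjusted p was under 0.05 for 1652, 851 and 1284 genes by edgeR, and DESeq2 called 228, 6 and 110 genes. With 1 library left out the counts ran from 31 (without KO replicate 1) to 1199 (without WT replicate 2) in progenitor-like nuclei, and from 2 to 131 (without KO replicate 2) in mesenchyme-like nuclei. Neuron-like nuclei gave 240 and 892 without WT replicate 1 or 2 and 0 without either KO library. Part of the progenitor-like class, cluster 3, was led by heat shock genes such as HSPA1A and had 0.338 of the median depth.

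The 3 genes called in progenitor-like nuclei were LHFPL3, ZNF667 and CLPS. LHFPL3, which encodes a tetraspan-family membrane protein, had 51.6, 59.9, 260.1 and 221.6 CPM and rose by 2.11 (SE 0.21, edgeR adjusted p = 0.0363). In the whole tissue it had 52.9, 55.6, 156.1 and 119.9 CPM. LHFPL3 was also among the leading genes of progenitor-like cluster 9, which held 48 and 132 WT nuclei and 907 and 317 KO nuclei. How far the mix of clusters within the class made up this rise was not tested. ZNF667 had 9.32, 9.91, 0.131 and 0 CPM in progenitor-like nuclei. In mesenchyme-like nuclei it had 6.31, 7.98, 0.215 and 0 CPM, and in neuron-like nuclei 7.76, 8.43, 0.151 and 0 CPM, without passing the test there (edgeR adjusted p = 0.205 and 0.1). HOXD3 had 6.17, 4.15, 37.6 and 17.2 CPM in mesenchyme-like nuclei and 19.4, 33.4, 96.6 and 59.7 CPM in neuron-like nuclei, also without passing (edgeR adjusted p = 0.314 and 0.64).

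The genes that fell in whole teratomas were mostly lower within these classes too. Of the 306 that could be tested in mesenchyme-like nuclei 82.7% lay below 0, against 48.0% of all genes there. The shares were 96.3% of 296 in progenitor-like nuclei (53.7% of all) and 89.1% of 202 in neuron-like nuclei (51.4% of all). The genes that rose lay above 0 in 96.5%, 91.5% and 93.4%. The nuclei are those of the whole-tissue comparison, so these shares are not independent of it.

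In 13 clusters every library had at least 50 nuclei, and levels were compared in each, with no test. Both KO libraries lay below both WT libraries in at least 10 of these 13 clusters for 84 of all genes (0.316%), 37 of which fell in whole teratomas, and above in at least 10 for 38 genes (0.143%), 9 of which rose. ZNF667, GATA4, CLPS and PRSS1 were lower in all 13, ZNF667-AS1 and ZNF585B in 12, and ZNF431 in 13. HOXA3 was higher in 12 and HOXD3 in 11. The WT level of ZNF667 ran from 2.94 CPM in smooth muscle and pericyte-like cluster 5 to 15.9 CPM in melanocyte-like cluster 18. In 7 of the 13 clusters neither KO library had a UMI of ZNF667.

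**Figure D5:**
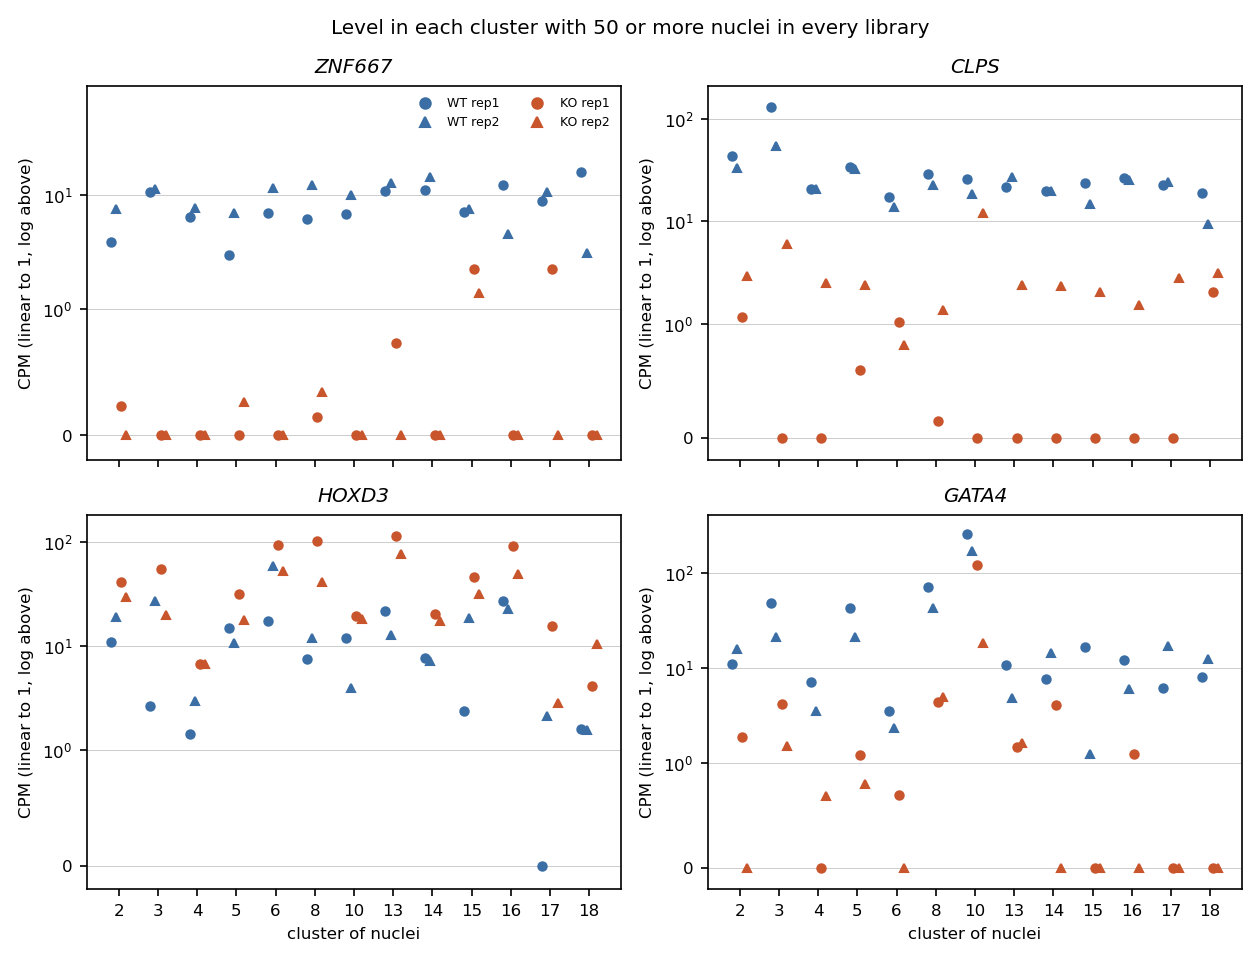
CPM of ZNF667, CLPS, HOXD3 and GATA4 in each of the 13 clusters (axis linear up to 1 and logarithmic above), 1 point per library, WT in blue and KO in orange. ZNF667, CLPS and GATA4 are lower in both KO libraries in every cluster shown, and HOXD3 is higher in both in 11 clusters.

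CLPS is a pancreatic secretion product, yet it had 9.32 to 130.7 CPM in the WT libraries in every one of these clusters, neurons included (17.4 and 13.8 CPM in cluster 6). Human UMIs in mouse nuclei of the same libraries give a measure of RNA that is free in the suspension or assigned to the wrong species. Of 81433 human UMIs in the mouse nuclei of both WT libraries 22 were CLPS, 270.2 CPM, against 34.0 CPM in human nuclei. In KO 1 of 122921 was CLPS. ALB had 38 and AFP 82 of those UMIs in WT, and APOA1 had 40, each also above its level in human nuclei. GATA4 had 2 and ZNF667 had 0, against 76.5 and 8.26 CPM in human nuclei, and 0 UMIs allow up to 36.8 CPM. The share of free RNA in the differences within clusters was not tested.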

How the data were processed

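Nuclei of whole teratomas were isolated and read with the 10x 3' gene expression assay, per the labels' protocols. The authors deposited raw UMI counts per gene and barcode on a joint human and mouse reference, and the submitters' processing notes name Cell Ranger 8.0.1 (8.0.0 per the file headers). No source used here gives the intron or strand settings. Of 38606 human gene IDs 34436 matched GENCODE 29, the source of gene positions (GRCh38). Promoter sequences are from RefSeq (GRCh38.p14).

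UMI counts of human nuclei were summed per library and tested with edgeR 4.0.16 in R 4.3.3, with TMM scaling, filterByExpr, a robust quasi-likelihood fit of the 4 libraries and Benjamini-Hochberg adjustment at 0.05. Median depth and total counts are given with the results. Nuclei were clustered with scanpy 1.11.5 and leidenalg 0.10.2 at resolution 1, on 2000 variable genes and 30 components, after the nuclei with the highest scrublet scores were removed as doublets (4.44% to 9.80% per library). A class name needed at least 3 markers, and a minimum share of the class's markers, at least 2-fold up and at 20 CPM or more. The class with the largest such share was taken. A cluster stayed unnamed where its leading genes held more markers of another class, as in clusters 10, 11 and 17. Classes were built anew here. On simulated counts for the whole-tissue comparison, over 26132 genes, 9 of 67 true 2-fold changes passed in edgeR, as did 54 of 67 at 4-fold and 64 of 66 at 8-fold, beside 18 unchanged genes.

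The genes and lists described were chosen with earlier results of these data known. Named genes were, per direction, the 12 with the largest change and the 6 with the highest level among calls at 5 CPM or more whose groups did not overlap, and for each list the 3 members with the smallest p, of which 2 genes are not reported here. Others named from the lists or as neighbours, the ZNF genes of other chromosomes and the counts over clusters were chosen after their values were seen. Alternatives were relative log expression scaling, DESeq2 1.42.0, no filter on low counts, the replicate number as a block, each library left out, all 6 libraries, doublets removed, stricter nuclei (1000 UMIs, 95% human), nuclei thinned to 1000 UMIs and 2 other clustering resolutions. The ΔATG libraries entered only the fit of all 6 libraries.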

Additional observations from a re-analysis of the deposited data

How the results depend on the processing

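Against 714 genes called in whole teratomas, DESeq2 called 1773, the fit with no filter on low counts 1225, relative log expression scaling 668, nuclei with doublets removed 521, stricter nuclei 694, thinned nuclei 434 and the fit of all 6 libraries 0 (1301 at an unadjusted p under 0.05). With each library left out the count ran from 572 to 1364, and 60.4% to 84.2% of the 714 genes were called again. All 714 kept their direction in every one of these fits, except that 653 had a value in thinned nuclei, where all 653 did. These fits reuse the counts in which the genes were called, so the shared direction is no independent check. Within classes, mesenchyme-like nuclei gave 0 calls, against 228 by DESeq2, 879 with no filter and 2 to 131 with a library left out. Progenitor-like nuclei gave 3, against 110, 161 and 31 to 1199, and neuron-like nuclei gave 0, against 6, 182 and 0 to 892 (240 without WT replicate 1). Same-numbered libraries did not deviate together across all genes (r = 0.08 across 26580 genes), which cannot exclude a shared factor for some genes. With the replicate block 1451 genes were called in whole teratomas, 85 in mesenchyme-like and 5 in progenitor-like nuclei. FOSB, not called in the main fit (0.313, 1.83, 0.907 and 12.8 CPM), passed with the block (edgeR adjusted p = 0.0123). With each library left out, the log2 difference of the skeletal muscle-like share ran from 1.01 to 5.69 (passing without WT replicate 1) and that of the general epithelium-like share from -6.39 to -3.13 (not called without KO replicate 1, nor at resolution 0.5, -3.99, or 2, -1.94). Some values that were not called changed sign with a library left out: the melanocyte-like share (-0.228 to 0.543), CDC45 (-0.71 to 0.10), MCM5 (-0.94 to 0.22), MT-ATP6 (-0.0432 to 0.96), MT-ND3 (-0.0493 to 2.16) and FOSB (-0.26 to 4.47). The cause was not tested. With 2 libraries a group, changes near 2-fold were often below what the test calls, and LNCPRESS1 was too rare to compare.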

Other observations

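Other genes of gut, liver and pancreas differed outside the lists, all chosen here after their values were seen. NR5A2, a nuclear receptor of liver and pancreas, had 129.2, 122.2, 11.5 and 20.8 CPM (WT replicates 1 and 2, then KO), a fold change of -2.96 (SE 0.30, edgeR adjusted p = 0.00869). CFTR, the chloride channel of duct and gut epithelium, had 117.5, 118.8, 22.3 and 30.9 CPM, a fold change of -2.15 (SE 0.22, edgeR adjusted p = 0.00853). The groups did not overlap in either gene. SPINK1, the trypsin inhibitor of pancreatic juice, had 65.5, 34.3, 3.63 and 9.64 CPM and did not pass (edgeR adjusted p = 0.0575).

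Of the genes called, 120 that rose and 385 that fell were protein-coding in GENCODE 29. Long intergenic noncoding RNAs made up 26 and 68, and antisense RNAs 27 and 28. Antisense genes overlap coding ones, so reads of the pairs cannot be told apart without the strand setting. PABPN1, which encodes a poly(A)-binding protein of the nucleus, was below WT in both KO libraries in all 13 clusters that could be compared, with 148.6, 140.5, 121.3 and 123.2 CPM in whole teratomas, and did not pass there (edgeR adjusted p = 0.603). H19, an imprinted RNA of fetal tissue, was lower in 12 clusters and had 83.1, 127.9, 20.6 and 54.7 CPM (edgeR adjusted p = 0.203).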
